A study of Mus musculus with 12 samples.

Results

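The mRNAs of 5 secreted proteins better known as products of the liver were followed in the kidney cortex: Ttr, Apoa1, Apoa2, Apoe and Rarres2. These 5 genes were taken by symbol from the 11614 measured genes, and all 5 were found in all 12 libraries. They were chosen on measured values, since Ttr and Apoa2 had stood out in an earlier reading of the 12-week libraries. The values at 12 weeks, and every comparison over time that reuses those libraries, are therefore given as a description without a test, and tests on the 5 genes are given for 24 weeks. The libraries are total RNA from kidney cortices of C57BL/6J mice, 3 libraries in each of 4 groups. Control mice had a normal diet and corn oil for 12 or 24 weeks. NASH mice, a model of non-alcoholic steatohepatitis (a fatty, inflamed liver), had a Western diet and CCl4, a liver toxin, for 12 or 24 weeks. The diet, the toxin and the liver disease cannot be told apart in this design. The labels give 6 mice for each 12-week group, 8 for the 24-week controls and 10 for the 24-week NASH group, males and females in equal number. They do not give the sex or the number of mice behind a library, the age at the start or the hour of dissection, and nothing says that libraries came from separate animals. Every p-value therefore measures the spread between these samples, which may be technical.

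Transthyretin, encoded by Ttr, carries thyroxine in blood and, bound to retinol-binding protein, vitamin A. Apolipoproteins A-I and A-II are the main proteins of high-density lipoprotein, and apolipoprotein E is the ligand by which lipoprotein remnants are taken up through receptors of the LDL receptor family. Chemerin, the product of Rarres2, is secreted as an inactive precursor, is cut by proteases, and then attracts leukocytes through the receptor CMKLR1. In the kidney, filtered transthyretin, retinol-binding protein and apolipoprotein A-I are taken back into proximal tubule cells by megalin and cubilin, so the proteins reach cortex cells whether or not their mRNA is made there. The measurements below are of mRNA only.

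On mm10, Apoa1 (gene ID 11806) lies on chromosome 9 from 46228630 to 46230469, plus strand, and Apoa2 (11807) on chromosome 1 from 171225054 to 171226379, plus strand. Apoe (11816) lies on chromosome 7 from 19696244 to 19699188, minus strand. RefSeq promoter sequences on GRCm38.p6 were matched for 3 of the 5 genes. These were the 3 apolipoprotein genes, and the 250 bases before the listed start of each are printed. Whether any letters in them bear on how the genes varied across libraries was not tested. Capitals mark the letters GGNTCA (a half-site of the kind nuclear receptors read) and TGTTTNC (of the kind forkhead factors read), on either strand.
Apoa1, chr9:46228380-46228629, plus strand: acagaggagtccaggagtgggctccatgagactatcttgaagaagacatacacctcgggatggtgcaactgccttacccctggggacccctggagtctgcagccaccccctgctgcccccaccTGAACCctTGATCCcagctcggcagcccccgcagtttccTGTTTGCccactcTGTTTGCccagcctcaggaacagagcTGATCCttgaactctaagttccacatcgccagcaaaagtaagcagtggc
Apoa2, chr1:171224804-171225053, plus strand: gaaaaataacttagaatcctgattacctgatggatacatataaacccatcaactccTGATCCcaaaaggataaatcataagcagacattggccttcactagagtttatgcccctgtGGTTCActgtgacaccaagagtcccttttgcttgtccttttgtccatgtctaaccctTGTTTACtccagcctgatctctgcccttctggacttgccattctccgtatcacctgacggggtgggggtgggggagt
Apoe, chr7:19699189-19699438, minus strand: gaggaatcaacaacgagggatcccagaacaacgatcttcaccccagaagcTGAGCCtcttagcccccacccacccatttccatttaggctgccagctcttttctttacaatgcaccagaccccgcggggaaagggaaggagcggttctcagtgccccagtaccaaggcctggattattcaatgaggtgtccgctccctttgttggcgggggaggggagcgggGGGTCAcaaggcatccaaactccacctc
Apoa1 held GGNTCA letters starting 127, 119 and 49 bases before the start and TGTTTNC letters at 88 and 75 bases. Apoa2 held GGNTCA letters at 194 and 134 bases and TGTTTNC letters at 77 bases. Apoe held GGNTCA letters at 200 and 28 bases and no TGTTTNC letters. No marked stretch overlapped another. RefSeq lists other starts as well: a second Apoa2 start at 171221564 has neither motif in its window, and Apoe starts at 19698621 and 19698398 have GGNTCA letters at other positions (156 and 116 bases, and 85 bases) and no TGTTTNC letters. GGNTCA occurs in 37.3% and TGTTTNC in 17.8% of the 250-base windows before 32851 starts of 27025 genes, so neither is rare. The E-box letters CACGTG (6.02% of windows) and the D-box letters TTATGTAA (0.819%), which clock factors read, were in none of the 3 windows. These motifs were picked after the data were seen. A match is a run of letters and not a shown binding site, and the lack of a match says nothing of a factor.

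All values are on the deposited scale, log2 of reads scaled by 1 factor per library. On the scale of scaled reads per kilobase of the listed transcript (mean ± SD, n = 3), Apoe was the most abundant of the 5 in 12-week control cortex, at 1970 ± 996. Ttr stood at 574 ± 399, Rarres2 at 330 ± 94.9, Apoa2 at 156 ± 29.8 and Apoa1 at 16.2 ± 3.11 reads per kilobase. The neighbours Ttr and Rarres2 did not differ beyond their spread. In 24-week controls the level per kilobase was 2740 ± 2110 for Apoe, 466 ± 202 for Rarres2, 349 ± 60.2 for Ttr, 241 ± 64.8 for Apoa2 and 31.6 ± 24.5 for Apoa1, with Rarres2, Ttr and Apoa2 close to each other. In 12-week NASH cortex Ttr reached 3530 ± 2140 per kilobase, level with Apoe at 3170 ± 2750. The other levels per kilobase there were 837 ± 426 for Rarres2, 343 ± 92.2 for Apoa2 and 55.9 ± 49.0 for Apoa1. In 24-week NASH cortex Apoe stood at 5340 ± 2380, Rarres2 at 1940 ± 1450, Ttr at 935 ± 389, Apoa2 at 361 ± 243 and Apoa1 at 55.0 ± 68.2 per kilobase. Across the 12 libraries the highest value exceeded the lowest 41.5-fold for Ttr, 19.5-fold for Apoa1, 12.6-fold for Rarres2, 6.27-fold for Apoe and 4.71-fold for Apoa2.

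Depth, estimated from the steps between low values, ran from 7170000 to 14100000 reads per library. The shallowest were NASH 12-week replicates 2 and 3 (7170000 and 8230000) and NASH 24-week replicate 3 (8280000). All 14 proximal tubule markers listed were measured, and their summed level ran from 319000 to 894000 scaled reads, lowest in replicate 1 of every group. Much of that gap was Kap. In 12-week controls the sum was 324000 in replicate 1 and 764000 in replicate 2, and Kap held 5370 and 423000. Slc34a1 (16.33 to 16.57, log2, against 16.39 to 16.93) and Lrp2 (14.71 to 15.28 against 14.58 to 15.2) overlapped between replicate 1 and the others. Slc22a6 was lower in replicate 1 (12.82 to 13.52 against 14.14 to 14.95). Replicate 1 of every group stood apart from replicates 2 and 3. It carried Xist, the RNA of the inactive X chromosome, at 10.6 to 11.54 against 2.97 to 4.86 in the others, and the Y-linked Ddx3y at 2.48 to 4.25 against 8.95 to 9.62. By these 2 genes replicate 1 of every group held mainly female RNA and replicates 2 and 3 male RNA, though the labels give no sex. Sex and any other trait of replicate 1 cannot be told apart, and values from replicates 2 and 3 alone concern male-type libraries. Results are therefore also given from a fit with the replicate number as a block and from replicates 2 and 3 alone. Control 24-week replicate 1 also stood apart by its fat-cell genes, with Adipoq at 10.5 and Cfd at 12.98.

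**Figure D1:**
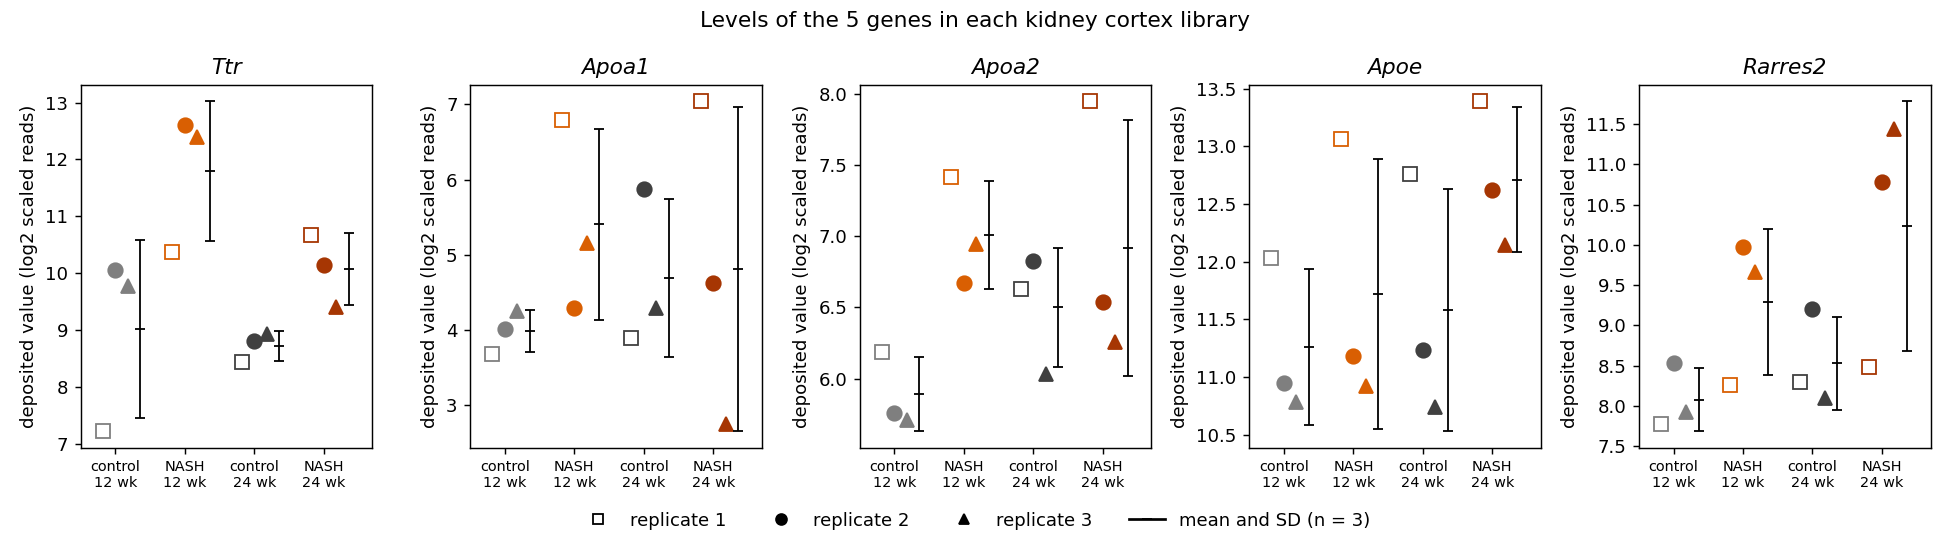
Deposited log2 value (vertical axis) of Ttr, Apoa1, Apoa2, Apoe and Rarres2 in each of the 12 libraries, by group (horizontal axis); open squares are replicate 1, circles replicate 2 and triangles replicate 3, with the mean and SD of each group (n = 3). The NASH libraries lie above the controls of the same time for Ttr at both times. Replicate 1 lies above replicates 2 and 3 in all 4 groups for Apoe, and for Rarres2 it lies below their mean in all 4 groups, though above replicate 3 in 24-week controls.

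Ttr (gene ID 22139, chromosome 18 from 20665250 to 20674326, plus strand), the hormone and retinol carrier, had higher values in NASH than in control cortex at both times. At 12 weeks the controls stood at 7.22, 10.06 and 9.78 (log2, replicates 1 to 3) and the NASH libraries at 10.37, 12.60 and 12.40. The groups did not overlap, although NASH replicate 1 exceeded control replicate 2 by little. The mean difference was 2.77 (log2; SE 0.74 without and 0.59 with the replicate block), or 6.80-fold, and was 3.15, 2.53 and 2.61 in the same-numbered pairs. All genes had a median difference of -0.08, and 8.14% of them had NASH libraries wholly above the controls at 12 weeks. The difference was 1.86 without control 12-week replicate 1, the library with the lowest Ttr, and 3.47 without NASH 12-week replicate 1. The 2 NASH libraries with the highest Ttr were also the 2 shallowest, and the part of depth in the level was not tested.

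The 24-week controls held Ttr at 8.43, 8.81 and 8.92 and the NASH libraries at 10.67, 10.14 and 9.40, again without overlap. Libraries of 4.56% of all genes were separated in this way, with NASH above control, at 24 weeks. The mean difference was 1.35 (log2; SE 0.74), or 2.54-fold, and it did not pass (limma, adjusted p = 0.999; 0.508 with the replicate block, SE 0.59). Its size ran from 2.24 in the replicate 1 pair through 1.33 to 0.47 in the replicate 3 pair. Replicates 2 and 3 alone gave 0.90 (SE 0.21, adjusted p = 0.199). Between 12 and 24 weeks the Ttr means differed by -1.72 (SE 0.74) in NASH mice and by -0.30 (SE 0.74) in controls, given without a test because the 12-week libraries enter both. Within NASH mice the lower values at 24 weeks were those of replicates 2 and 3, at -2.46 and -3.00 in the same-numbered pairs, while replicate 1 differed by 0.29. Controls were split in the same way, with 1.2 for replicate 1 and -1.25 and -0.86 for replicates 2 and 3. Replicates 2 and 3 alone gave -1.06 (SE 0.21) in controls and -2.73 (SE 0.21) in NASH mice.

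In the comparison of NASH with control at 24 weeks as a whole, limma called no gene of 11614 (0.0%) without the block, with 347 at an unadjusted p under 0.05. It called 1 (0.00861%) with the block, with 1124 at an unadjusted p under 0.05, and 12 (0.103%) from replicates 2 and 3 alone, with 1061. None of the 5 genes was called in the first or second of these fits, and Apoe and Rarres2 were called in the third. At 12 weeks the fits called 6 genes (0.0517%) without and 1494 (12.9%) with the block.

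**Figure D2:**
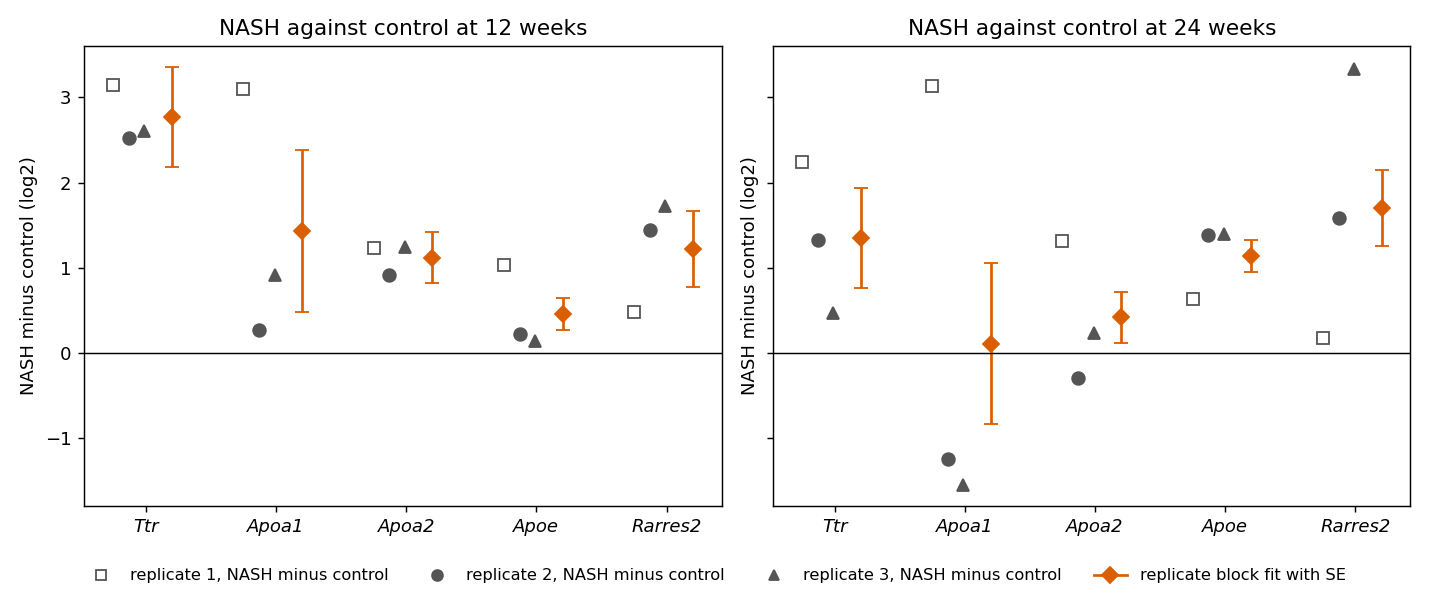
NASH minus control value (log2, vertical axis) of each gene at 12 weeks (left) and 24 weeks (right); grey symbols are the differences within replicate numbers 1, 2 and 3 and orange diamonds the estimate of the replicate block fit with its SE. All 3 pairs lie above 0 for every gene at 12 weeks, and at 24 weeks for Ttr, Apoe and Rarres2, while Apoa1 runs from 3.14 to -1.55.

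Apoa1, the gene of the main HDL protein, was near the floor of detection. The 12-week controls stood at 3.69, 4.02 and 4.25 (log2) and the 12-week NASH libraries at 6.79, 4.29 and 5.16. The 24-week controls stood at 3.90, 5.88 and 4.30 and the NASH libraries at 7.04, 4.63 and 2.76. The highest values, 6.79 and 7.04, were both from replicate 1 of a NASH group, and the groups overlapped at 24 weeks; at 12 weeks they were apart by a margin smaller than the spread within either group. In estimated reads these 2 libraries held 99 (exact Poisson 95% interval 80.5 to 121) and 117 (96.8 to 140) reads on Apoa1. The replicate 1 controls held 12 (6.2 to 21) at 12 weeks and 11 (5.49 to 19.7) at 24 weeks. Apoa1 appears to have passed the filter on deposited genes through those 2 NASH libraries, so the gap is a description only. In the remaining libraries the reads numbered between 4 (1.09 to 10.2) and 59 (44.9 to 76.1), the latter in control 24-week replicate 2. The same 2 NASH libraries held the highest summed levels of the 6 measured erythroid markers (of 7 listed), at 7880 and 5850 scaled reads, against 1190 to 3480 in the other 10 libraries. The sum is not a measure of blood cells alone. Slc4a1, also a collecting duct gene, ran from 10.25 to 10.53 in replicate 1 and from 8.7 to 9.63 in the others. Of these markers 5 had a positive difference at 12 weeks (median 0.80, log2) and 6 at 24 weeks (median 1.26). Of all genes 40.4% and 52.1% did so. No marker was called with or without the block, and the part of blood cells in the Apoa1 values was not tested. The intervals cover counting error only, and single reads are not independent molecules.

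The mean difference of Apoa1 was 1.43 (log2; SE 1.04) at 12 weeks and 0.11 (SE 1.04) at 24 weeks (limma, adjusted p = 0.999; 0.985 with the replicate block). At 24 weeks the same-numbered pairs differed by 3.14, -1.25 and -1.55, so the sign depended on which libraries were read: replicates 2 and 3 alone gave -1.40 (SE 0.80, adjusted p = 0.633). Without NASH 12-week replicate 1 the 12-week difference was 0.74. Whether the difference varied with the replicate number was not tested, as each number has 1 library per group. Apoa1 reached 100 scaled reads in 2 of the 12 libraries, the same NASH replicate 1 pair, while every gene in the files reaches it in at least 1. The values of that pair, and the differences they enter, are therefore no support for a NASH effect.

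**Figure D3:**
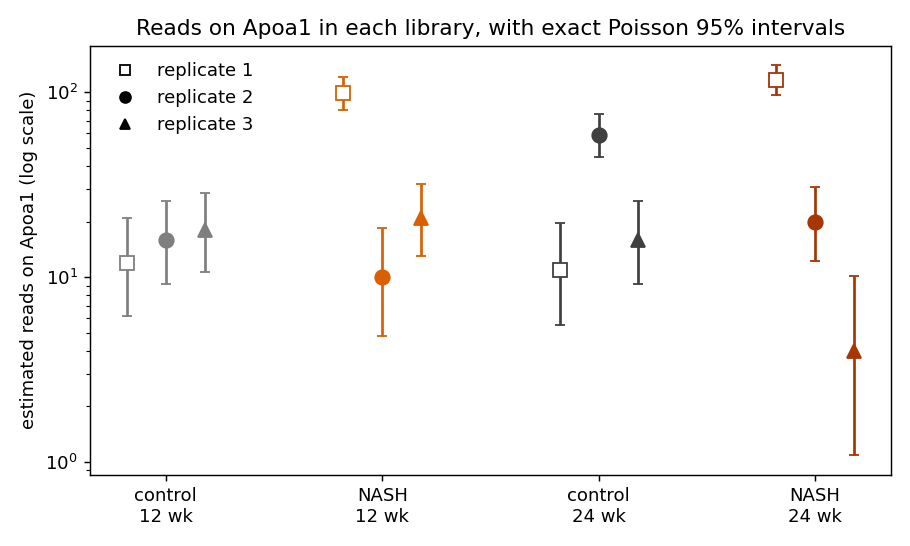
Estimated reads on Apoa1 (vertical axis, log scale) in each of the 12 libraries by group (horizontal axis), with exact Poisson 95% intervals; open squares are replicate 1, circles replicate 2 and triangles replicate 3. NASH replicate 1 holds 99 and 117 reads, and the other libraries hold between 4 and 59.

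Apoa2, the gene of the second HDL protein, was the least variable of the 5. The 12-week controls stood at 6.19, 5.76 and 5.71 (log2) and the 12-week NASH libraries at 7.42, 6.67 and 6.95, without overlap. The difference was 1.12 (SE 0.42 without and 0.30 with the block), or 2.18-fold, and it was 1.23, 0.91 and 1.24 in the same-numbered pairs. With each library's trend on transcript length and GC content removed, the blocked difference was 0.62. At 24 weeks the controls stood at 6.63, 6.83 and 6.03 and the NASH libraries at 7.95, 6.54 and 6.26. These groups overlapped, and NASH replicate 1 was again the highest library. The difference was 0.42 (log2; SE 0.42, limma, adjusted p = 0.999; 0.672 with the replicate block). It was -0.03 from replicates 2 and 3 alone and -0.10 without NASH 24-week replicate 1. Controls at 24 weeks exceeded controls at 12 weeks by 0.61 (SE 0.42) and NASH mice differed by -0.09 (SE 0.42) over the same time. The 5 listed Apoa2 transcripts share 1 deposited value, and how the authors joined them is not given in the sources used here.

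Apoe, the remnant ligand, was the most abundant per kilobase in 3 of the 4 groups and had the largest mean difference by replicate number of the 5. The 12-week controls stood at 12.03, 10.95 and 10.78 (log2) and the 12-week NASH libraries at 13.06, 11.18 and 10.92. The 24-week controls stood at 12.76, 11.23 and 10.74 and the NASH libraries at 13.39, 12.62 and 12.14. Replicate 1 exceeded the mean of replicates 2 and 3 in 4 of 4 groups, by 1.49 ± 0.48 (SD over 4 groups). The groups overlapped at both times. At 24 weeks they did so through control replicate 1 alone. At 12 weeks control replicate 2 (10.95) also exceeded NASH replicate 3 (10.92), so the overlap did not rest on replicate 1. Within each replicate number the NASH library was the higher one, by 1.03, 0.22 and 0.14 at 12 weeks and by 0.63, 1.39 and 1.40 at 24 weeks.

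At 12 weeks the mean difference of Apoe was 0.46 (log2; SE 0.64 without and 0.19 with the replicate block), and it was -0.21 without NASH 12-week replicate 1 in the fit without the block. From replicates 2 and 3 alone it was 0.18 (SE 0.19), and with the block and the length and GC trend removed 0.11 (SE 0.17). At 24 weeks it was 1.14 (SE 0.64), or 2.20-fold, and did not pass without the block (limma, adjusted p = 0.999). With the block the SE was 0.19 and the 95% interval 0.72 to 1.56, with an unadjusted p of 1.04e-04 and an adjusted p of 0.188. From replicates 2 and 3 alone Apoe was called, with a difference of 1.39 (SE 0.19, adjusted p = 0.0288). That call rests on 2 libraries per group, and it was lost in 5 of the 8 fits that each left out 1 further library, with adjusted p from 0.0525 to 0.203 in those 5. Over time the Apoe means differed by 1.0 (SE 0.64) in NASH mice and by 0.32 (SE 0.64) in controls.

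Macrophages also make apolipoprotein E. At 24 weeks 13 of the 13 measured macrophage markers (of 16 listed) had a positive difference, with a median of 0.68 (log2) against 0.01 over all genes, and none was called. From replicates 2 and 3 alone the median was 1.08, again with none called. The complement gene C1qb stood at 0.92 (SE 0.36) and Cd68 at 0.90 (SE 0.53) with the block. The summed level of the list ran from 1500 to 3340 scaled reads in 24-week controls and from 2830 to 5940 in 24-week NASH libraries, highest in replicate 2. At 12 weeks it ran from 1990 to 2710 in controls and from 1880 to 3770 in NASH. No measured marker of the list was at 0 in a whole group, and the part of macrophages in the Apoe values was not tested. In RNA from whole cortex, more or fewer cells of a type and more or less RNA per cell cannot be told apart.

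Rarres2 (gene ID 71660, chromosome 6 from 48569696 to 48572802, minus strand), the gene of chemerin, stood lower in replicate 1 than the mean of replicates 2 and 3 in 4 of 4 groups, by -1.24 ± 1.07 (SD over 4 groups). The 12-week controls stood at 7.78, 8.53 and 7.93 (log2) and the 12-week NASH libraries at 8.26, 9.97 and 9.66. At 24 weeks the controls stood at 8.30, 9.20 and 8.10 and the NASH libraries at 8.49, 10.78 and 11.44. The groups overlapped at both times through replicate 1 of the NASH group. In the same-numbered pairs NASH was higher by 0.48, 1.44 and 1.73 at 12 weeks and by 0.18, 1.58 and 3.34 at 24 weeks. At both times the difference was smallest in replicate 1, the reverse of Apoa1.

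The mean difference of Rarres2 was 1.22 (log2; SE 0.68 without and 0.45 with the block) at 12 weeks. At 24 weeks it was 1.70 (SE 0.68), or 3.25-fold, with an unadjusted p of 0.0292 and an adjusted p of 0.999 (limma). With the replicate block the 24-week SE was 0.45, the 95% interval 0.71 to 2.69 and the adjusted p 0.388. From replicates 2 and 3 alone Rarres2 was called, at 2.46 (SE 0.34, adjusted p = 0.0288), and that call was lost in 4 of the 8 fits without 1 further library, with adjusted p from 0.0537 to 0.145. In the fit of all libraries without the block the difference was 1.10 without NASH 24-week replicate 3, which had the highest value, and 2.57 without NASH 24-week replicate 1. Fat cells are a known source of chemerin. All 15 adipocyte markers had a negative difference at 24 weeks, with a median of -2.80 (log2), or -1.02 in replicates 2 and 3, and none was called. Over all genes 52.1% were positive at 24 weeks, with a median of 0.01. Adipoq ran from 7.71 to 10.5 in the 24-week controls, highest in replicate 1, and from 2.17 to 7.54 in the 24-week NASH libraries. At 12 weeks 14 of the 15 markers had a positive difference, with a median of 0.70, against 40.4% and -0.08 over all genes. The summed level of the list ran from 17500 to 29400 scaled reads in 12-week controls, 21300 to 33400 in 12-week NASH, 30200 to 57200 in 24-week controls and 14900 to 25100 in 24-week NASH libraries. Much of that sum was Lpl and Gpd1, named after their values were seen. Their group means ran from 12.91 to 13.88 and from 12.99 to 13.79 (log2), against 3.77 to 8.7 for Adipoq. The sum is therefore not a measure of fat cells alone. The part of fat cells in the Rarres2 values was not tested.

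No measured partner of chemerin passed the test. Of 19 receptor and protease genes listed, 7 were measured. All 7 missed the threshold at 12 and 24 weeks with and without the replicate block (12.9% and 0.00861% of all genes were called with it). The median difference was 0.15 (log2) at 12 weeks and 0.05 at 24 weeks, against -0.08 and 0.01 over all genes. The receptor gene Cmklr1 differed by 0.45 (SE 0.48) at 12 weeks and by -0.33 (SE 0.48) at 24 weeks with the block. Plat, the gene of tissue plasminogen activator, whose product plasmin cuts chemerin, stood at 0.13 (SE 0.23) and 0.28 (SE 0.23).

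Genes that handle what transthyretin carries were called about as often as genes in general. Of 20 listed, 18 were measured. At 12 weeks none was called without the block, and with it 2 fell and none rose, where 9.85% of all genes were called lower and 3.01% higher. Rdh10, which oxidises retinol to retinal, fell by 0.98 on the log2 scale (SE 0.12, limma with the replicate block, adjusted p = 0.00394; 0.166 without it), from 10.37 ± 0.32 to 9.38 ± 0.29 (SD, n = 3). Thra, the thyroid hormone receptor alpha gene, fell by 0.57 (SE 0.15, adjusted p = 0.0334; 0.339 without the block; called in 8 of 12 blocked fits that left out 1 library). Rbp4, whose protein rides on transthyretin, differed by 1.86 (SE 0.68, adjusted p = 0.0941), from 3.69 ± 0.32, near the floor of detection, to 5.54 ± 0.70. The uptake receptor genes Lrp2 (megalin) and Cubn (cubilin), named after their values were seen, differed by -0.08 (SE 0.19) and -0.01 (SE 0.14). The retinol importer gene Stra6 stood at -0.58 (SE 0.43) and Lrat, which stores retinol as esters, at -0.99 (SE 0.33, adjusted p = 0.07). The list's median was -0.15 at 12 weeks and -0.04 at 24 weeks, and none of its genes was called at 24 weeks, when Rdh10 differed by 0.01 (SE 0.12) and Rbp4 by -0.83 (SE 0.68).

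Of 18 other apolipoprotein genes listed, 8 were measured, and their differences at 12 weeks went both ways. None was called at 12 weeks without the block, and with it 2 fell and none rose, beside 9.85% of all genes called lower and 3.01% called higher. Apom, which carries sphingosine 1-phosphate on HDL and is made in proximal tubule as well as liver, fell by 1.28 on the log2 scale (SE 0.19, adjusted p = 0.00596; 0.107 without the block), from 10.67 ± 0.21 to 9.38 ± 0.50, and was called in 12 of 12 blocked fits that left out 1 library. At 24 weeks Apom differed by -0.02 (SE 0.19). Apob, the core protein of VLDL and LDL, fell by 0.67 (SE 0.14, adjusted p = 0.0151; 0.502 without the block) at 12 weeks. That call was lost with the length and GC trend removed (adjusted p = 0.132), and at 24 weeks Apob stood at -0.63 (SE 0.14, adjusted p = 0.323). The genes with the highest differences were not called: Apoa4 stood at 2.94 (SE 1.14, adjusted p = 0.109), Apoc1 at 1.83 (SE 0.61, 0.0715) and Apoc3 at 1.5 (SE 0.61, 0.125). In 12-week controls Apoa4 (3.85 ± 1.69) and Apoc1 (3.01 ± 0.58) were near the floor of detection. The median of the list was 0.93 at 12 weeks and -0.12 at 24 weeks.

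Of 29 genes of lipoprotein assembly, remodelling and uptake, 25 were measured, and 1 was called at 12 weeks with the block, where 12.9% of all genes were called, and none without it. Amn, the membrane partner of cubilin, rose by 0.51 (SE 0.12, adjusted p = 0.0282; 0.268 without the block), and that call was lost with the length and GC trend removed (adjusted p = 0.454). Abca1, which loads lipid onto apolipoprotein A-I, differed by 0.20 (SE 0.23) and the HDL receptor gene Scarb1 by -0.02 (SE 0.24). None of the 25 was called at 24 weeks, when Abca1 stood at 0.22 (SE 0.23), Abcg1 at 0.43 (SE 0.22) and the phospholipid transfer gene Pltp at 0.55 (SE 0.30).

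Among 27 listed factors that act on liver-type genes, 18 were measured, and 6 rose and none fell at 12 weeks with the block (3.01% of all genes were called higher). The list was drawn up with earlier results for some of these genes known, so the count is a description and no sign that the list stands apart. Dbp, an output factor of the circadian clock, rose by 5.48 (log2; SE 0.60, adjusted p = 0.00218), Nr1d2 by 1.33 (SE 0.21, 0.00834), Nr1d1 by 1.19 (SE 0.29, 0.0285), Tef by 1.17 (SE 0.16, 0.00463) and Hlf by 0.49 (SE 0.14, 0.0454). Of the 6 genes called with the block, 1 is not named here. Without the block 1 of the 18, Dbp, was called. The hour of dissection is not given, and its part in these values was not tested. The calls of Hlf held in 3 and of Nr1d1 in 8 of 12 blocked fits that left out 1 library, and that of Nr1d1 was lost with the length and GC trend removed (adjusted p = 0.0699). Hnf4a, a nuclear receptor of liver and tubule, stood at -0.43 (SE 0.13, adjusted p = 0.0517). At 24 weeks none of the 18 was called, and Dbp differed by -0.20 (SE 0.60).

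**Figure D4:**
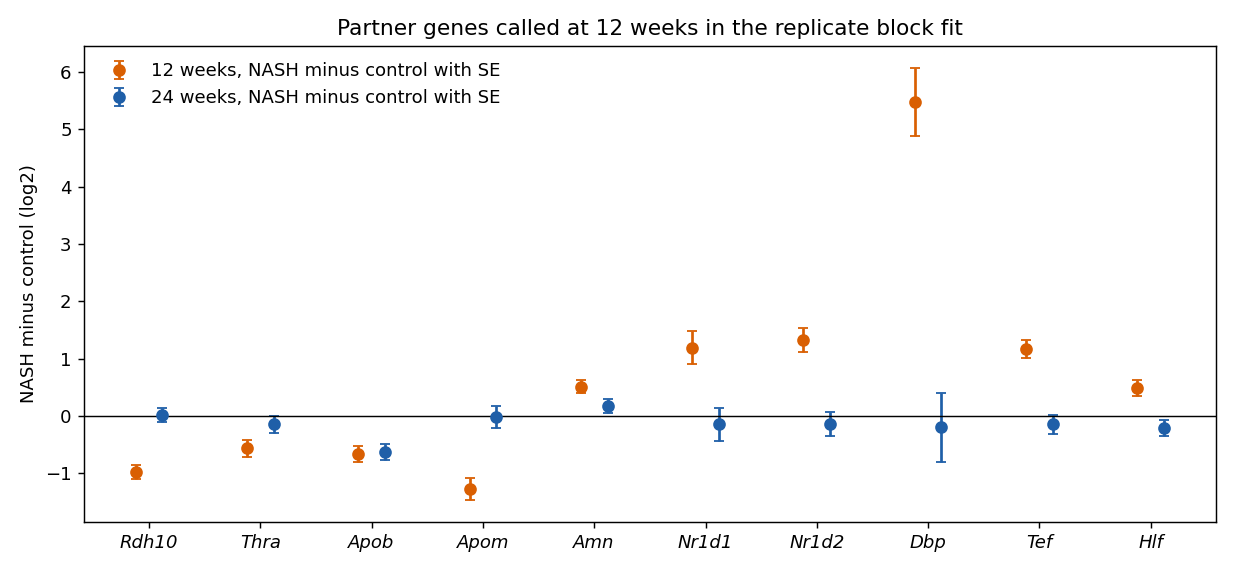
NASH minus control (log2, vertical axis, replicate block fit with SE) for partner genes named in the text and called at 12 weeks (horizontal axis), at 12 weeks in orange and at 24 weeks in blue. Dbp stands highest at 12 weeks, at 5.48, Rdh10, Thra, Apob and Apom lie below 0 at 12 weeks, and none of those plotted is called at 24 weeks.

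Markers of hepatocytes were read beside the 5 genes. Of 30 listed, 14 were measured. None was called without the block, and with it 1, Apob, was lower at 12 weeks. At 12 weeks 9 of the 14 had a positive difference and at 24 weeks 11, where 40.4% and 52.1% of all genes did. The median difference of the list was 0.34 (log2) at 12 weeks and 0.48 at 24 weeks, against -0.08 and 0.01 over all genes. The summed level ran from 12700 to 43500 scaled reads in 12-week controls, 10600 to 54100 in 12-week NASH, 13500 to 45000 in 24-week controls and 12600 to 49400 in 24-week NASH libraries, of which Cyp2e1 and Apob, both also expressed in kidney and set apart here after their values were seen, made up 53.9% to 96.7%. Without those 2 genes the sum was 3440, 2560 and 1540 in 12-week controls and 4570, 1800 and 4440 in 12-week NASH libraries (replicates 1 to 3). At 24 weeks it was 4160, 2250 and 1530 in controls and 5830, 3100 and 3300 in NASH libraries. Alb, the gene of the main liver plasma protein, stood at 9.36, 7.69 and 8.02 in 12-week controls and at 9.90, 7.55 and 9.0 in 12-week NASH libraries. NASH minus control, Alb differed by 0.54, -0.14 and 0.98 in the same-numbered pairs at 12 weeks, where Ttr differed by 3.15, 2.53 and 2.61. The markers Serpina1d and Fgg, named after their values were seen, went opposite ways at 12 weeks. Serpina1d stood at 7.1 ± 2.51 in controls and 9.22 ± 1.66 in NASH libraries (SD, n = 3). Fgg stood at 7.81 ± 0.67 and 7.51 ± 0.13. At 24 weeks Alb stood at 9.15, 8.29 and 7.50 in controls and 10.77, 8.41 and 7.44 in NASH libraries, highest in the NASH replicate 1 library that was also highest in Apoa1, Apoa2 and Apoe. Alb was higher in replicate 1 than in the others in 4 of 4 groups, by 1.81 ± 0.71 (SD over 4 groups). The part of liver-type RNA in the values of Ttr and the apolipoproteins was not tested.

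The 5 genes did not share 1 pattern. Across the 12 libraries, as a description only, since libraries of a group or number share their depth and composition, Pearson's r was 0.81 between Apoa1 and Apoa2, 0.67 between Apoa2 and Apoe, 0.06 between Apoe and Rarres2 and -0.15 between Ttr and Apoe (n = 12). With the mean of each replicate number subtracted, r between Apoe and Rarres2 was 0.81, between Apoa1 and Apoa2 0.78 and between Ttr and Apoa2 0.67. Apoe and Rarres2 differ in opposite directions by replicate number, which the subtraction removes. The genes most like each one were then read off among all measured genes. For Ttr they were the aminoacylase gene Acy1 (r = 0.96), the translation factor gene Eif5a (0.942) and the mitochondrial pyruvate carrier gene Mpc1 (0.934), and with the number subtracted Ubl5 (0.971), Mrps21 (0.966) and Acy1 (0.957). For Rarres2 they were Uap1l1 (0.923), Igbp1 (0.911) and Rasl12 (0.906), and with the number subtracted B2m, the light chain of MHC class I (0.952), Lgals3bp (0.944) and Wdr78 (0.938). For Apoe they were Gsto1 (0.953), Rdh16f2 (0.938) and Tm6sf2 (0.937), and with the number subtracted Kifc2 (0.94), Sf3a2 (0.938) and Tcirg1 (0.936). For Apoa1 they were Hmgb1 (0.894), Kat5 (0.86) and Fam174a (0.855), then Bphl (0.938), Smpd2 (0.928) and Mfsd3 (0.916), and for Apoa2 Ndufa9 (0.911), Ppib (0.886) and Plp2 (0.871), then Bri3 and Htatip2 (both 0.964) and Tmem59 (0.959). With 11614 genes and 12 libraries such values are the top of a long list, and Apoa1 rests on few reads.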

How the data were processed

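Each deposited file holds 1 normalized log2 value per gene (11614 genes, mm10), as named per the file headers. BWA and limma appear in the submitters' processing notes; their versions and roles and how each library's factor was set are not given in the sources used here. Low values of genes with 1 transcript were whole multiples of 1 step per library in 100% of cases (within 0.01 steps), from which reads were estimated. Genes had been filtered before deposit by a rule not given in the sources used here, as each reaches 100 scaled reads in some library.

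The log2 values were fitted with limma 3.58.1 (R 4.3.3), 4 group means over 12 libraries with a mean-variance trend, 2-sided, Benjamini-Hochberg over 11614 genes, called at an adjusted p under 0.05. The script was tested on simulated data. The replicate numbers of the labels were also fitted as a block: deviations from group means correlated above 0.1 in all 18 same-numbered pairs (0.19 to 0.74). Replicates 2 with 3 also did so (0.19 to 0.64), and what a number means is not in the labels. Their median r was 0.36, against 0.4 for 2 with 2 and 0.43 for 3 with 3. A pairing of libraries by number 2 or 3 is therefore not shown, and differences within those numbers depend on it. Other alternatives were scaling, filters on low values, the trend, length and GC content, and leaving out libraries. Members and the 12 gene lists (154 of 210 different genes measured) were chosen with earlier results of these data known. Named were the 5 members, the first genes of a list and those called, the 3 genes most like each member (predicted loci left out), and Xist, Ddx3y, Kap and Dbp; some genes that the rule names are left out of the text.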

Additional observations from a re-analysis of the deposited data

How the results depend on the processing

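The number of genes called for NASH against control at 12 weeks was 6, and it was 1494 with the replicate block, 385 from replicates 2 and 3 only, 1 from the 6 libraries compared, and 0 to 11 when 1 library was left out. The count of 1494 with the replicate block was 350 higher and 1144 lower. It was 532 higher and 698 lower after quantile normalization and 686 higher and 693 lower after median-of-ratios scaling. It was 499 with the length and GC trend removed, and 253 to 1533 when 1 library was left out. At 24 weeks the count was 0, then 1 with the replicate block (1 to 4 without 1 library) and 12 from replicates 2 and 3 only (3 to 13 without 1 further library, added after seeing the data). For 24 against 12 weeks the counts were 0 in both groups. In controls they were 20 with the replicate block (0 to 434 without 1 library), 755 from replicates 2 and 3 (170 to 825), 1 from the 6 libraries compared and 0 to 3 without 1 library and without the block. In NASH mice they were 3 with the block (0 to 170), 541 from replicates 2 and 3 (172 to 526) and 0 to 4 without 1 library and without the block. Several 24-week values changed sign. For Apoa1 (0.11) these were -1.40 from replicates 2 and 3, -1.0 to 1.14 when 1 library was left out (-0.28 without control 24-week replicate 1 and -0.08 without control 24-week replicate 3), -0.95 to 1.08 with the replicate block and 1 library left out (-0.83 without control 24-week replicate 1), and -0.02 with the block and the length and GC trend removed. For Apoa2 (0.42) they were -0.03 from replicates 2 and 3 and -0.10 to 0.75 when 1 library was left out, and the -0.03 ran from -0.43 to 0.37 (control 24-week replicate 2 left out) when 1 further library was left out, with 0.11 without NASH 24-week replicate 3. Sign changes were also seen for Apoe at 12 weeks (-0.21 to 0.86 over the settings). Over time they were seen in controls for Ttr (-1.2 to 0.22) and Apoe (-0.27 to 0.74). In NASH mice they were seen over time for Apoa1 (-1.72 to 0.42) and Apoa2 (-0.61 to 0.23). The causes of these changes were not tested. Beside the calls of Apoe and Rarres2 from replicates 2 and 3, no setting changed a call of the 5 genes at 24 weeks. Depth limits Apoa1 above all, with 4 to 117 reads.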
